A study of Homo sapiens with 30 samples.

Results

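Soyo-san, a multi-herb formula of Korean medicine known in Chinese as Xiaoyao-san, was represented by 3 RNA-seq libraries, 1 at each of 500, 100 and 20 µg/mL. They were chosen by their labels alone and are 3 of the 30 libraries of the series. All 30 were made from A549, an established human lung adenocarcinoma line, after 24 h of treatment. The Soyo-san cells received an extract made with 70% ethanol, per the labels' protocols, and their libraries are titled replicate 3 of batch D; further Soyo-san replicates were not analysed here.

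The same batch letter D is in the titles of 3 other libraries, 1 at each dose, of the ethanol extract of Okbyeongpung-san (Yupingfeng-san in Chinese, a formula used for colds). These 6 make up batch D as analysed here. The remaining 24 libraries are titled batch E: 3 of vehicle, 3 of Okbyeongpung-san (replicate 2 of each dose), and 9 each of Soshiho-tang and Yijin-tang, with 3 replicates of each dose. What the letters stand for is not given in the sources used here. The vehicle libraries are labelled 0.1% DMSO, while the series text gives 2% DMSO; all vehicle libraries are of batch E, so that Soyo-san against vehicle cannot be told apart from batch D against batch E. The Soyo-san doses can be compared with each other, and with Okbyeongpung-san, within batch D.

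Several response systems are read below through their target genes. The aryl hydrocarbon receptor is a transcription factor that binds planar aromatic compounds, many plant flavonoids among them, and then switches on drug-metabolising cytochromes together with its own inhibitors. The integrated stress response raises the transcription factor ATF4 and with it genes of amino acid supply and stress signalling when translation initiation is restrained. Sterol regulatory element-binding proteins drive the genes of cholesterol and fatty acid synthesis when the membranes are short of sterols. ID proteins are inhibitors of basic helix-loop-helix transcription factors and are classical targets of bone morphogenetic protein (BMP) signalling.

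Each dose has 1 library; no test between doses was made, and values are given without p-values. As a yardstick, the difference of a gene between 2 Soyo-san libraries was set beside the 24 differences of the same gene between pairs of libraries of 1 group elsewhere in the series; most of these pairs lie within batch E, and the Okbyeongpung-san pairs run across D and E. The labels do not say that replicates were separate cultures, so this spread may be technical. It takes in the noise of the other extract libraries but not that of the Soyo-san libraries. A gene is said to stand apart where its level differed at least 1.5-fold (0.58 on the log2 scale) and by more than every one of those 24 pairs. Levels are in CPM, the depth-normalised count, after trimmed-mean scaling over all libraries, and differences are on the log2(CPM) scale with a prior count of 2. In all, 13799 genes had a mean of at least 1 CPM.

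The Soyo-san libraries held 27629661 to 30126067 counts, against 24560759 to 38008463 in the other extract libraries and 19833144 to 22327652 in vehicle. Mitochondrially encoded transcripts took 11.02% of counts at 500, 8.99% at 100 and 9.82% at 20 µg/mL, against 13.9% to 14.4% in vehicle. The epithelial keratins KRT8, KRT18 and KRT7 and the aldo-keto reductase AKR1B10 that mark A549 were abundant at every dose, while the surfactant genes SFTPB and SFTPC and the lung lineage factor NKX2-1, on the same list of 12, were below 0.2 CPM. Among immune genes CD3E was at 0 in the 500, 100 and 20 libraries. The 10 immune markers summed to 9.56 to 15.4 CPM over the 3 doses, most of it CD68, and 3 to 5 of them were at 0. Among fibroblast genes FAP was at 0 in all 3, and among endothelial genes VWF, ERG and EMCN. The 10 fibroblast markers summed to 39.4 to 42.9 CPM and the 10 endothelial markers to 4.65 to 5.24 CPM over the 3 doses.

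Between 500 and 20 µg/mL, 205 genes were at least 1.5-fold higher and 141 at least 1.5-fold lower, 2.51% of those measured. Of these, 96 higher and 57 lower genes stood apart, 153 in all or 1.11%. Without the filter on low levels the balance turned, with 415 genes higher and 559 lower. With the filter, the number of 153 lies inside the range that pairs of replicates give when each pair is judged against the other 23. There, 33 to 443 genes stood apart, with a median of 79. In 4 of the 24 pairs the number was above 153, and at 1.5-fold alone 6 of the 24 pairs exceeded the 346 genes of Soyo-san. The total by itself therefore does not separate the 500 from the 20 library. What follows describes which genes were involved and whether the 100 library lay between.

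**Figure D1:**
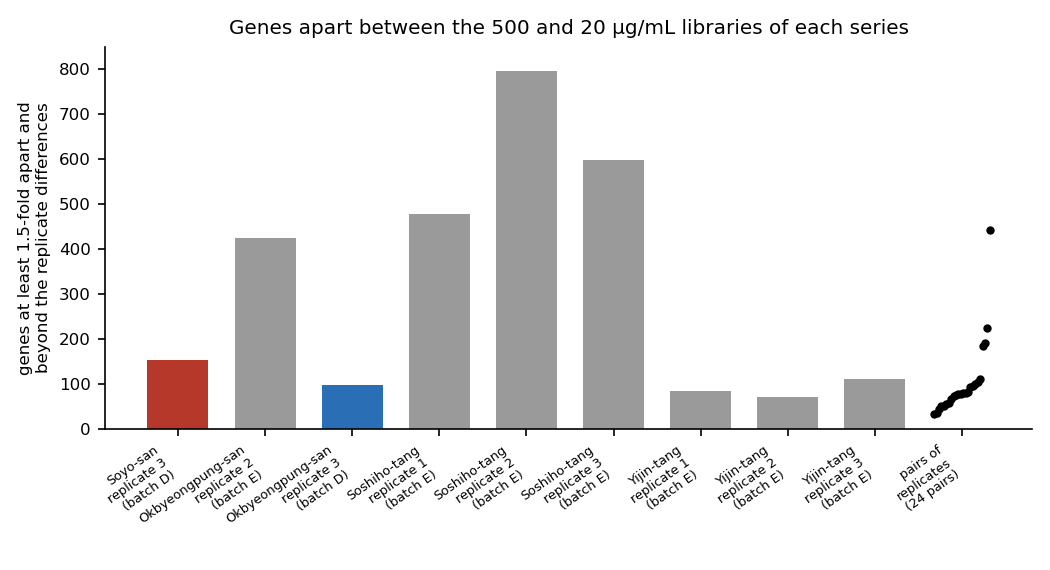
Number of genes (vertical axis) at least 1.5-fold apart between the 500 and 20 µg/mL libraries and beyond every replicate difference, for the 9 series of single libraries (Soyo-san red, Okbyeongpung-san of batch D blue, series of batch E grey); the black points are the 24 pairs of replicates, each judged against the other 23. Soyo-san, with 153 genes, stands above Okbyeongpung-san of batch D (98) and the 3 Yijin-tang series (71 to 110) and below the 3 Soshiho-tang series (478 to 796), and 4 replicate pairs stand above it. The yardstick is not equal, as the 24 pairs include libraries of the other extracts and none of Soyo-san. By 1.5-fold alone Soyo-san had 346 genes, Okbyeongpung-san of batch D 269 and the Yijin-tang series 227 to 355.

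The middle dose lay between the outer ones in most of these genes. Among the 96 higher genes, the 100 library was between the 20 and 500 libraries in 90 (93.8%), and among the 57 lower genes in 48 (84.2%). Over all genes that share was 50.8% for those higher and 46.4% for those lower at 500. Among all genes at least 1.5-fold apart it was 79% for those higher and 77.3% for those lower. At 100 µg/mL the median higher gene had covered 46.5% of its log2 difference between 20 and 500, and the median lower gene 31.0%. The shares of chosen genes use the libraries that chose them and are a description only. A wide gap between 500 and 20 by itself makes a middle value likelier. The dose steps themselves gave fewer genes. From 20 to 100, 33 were higher and 41 lower (74, or 0.536%), and from 100 to 500, 43 were higher and 33 lower (76, or 0.551%). Both counts are below the median of 79 among replicate pairs, and 15 of the 24 pairs exceeded the 74 genes.

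Target genes of the aryl hydrocarbon receptor were the list with the largest median difference among lists of at least 5 measured members. CYP1A1, the cytochrome that oxidises polycyclic aromatic compounds, was at 6.68 CPM at 500, 2.22 CPM at 100 and 0.995 CPM at 20 µg/mL of Soyo-san. Only the 500 and 100 libraries lay above the vehicle range of 0.629 to 1.24 CPM. The difference between 500 and 20 was 2.66 (95% exact counting interval 2.17 to 3.37, from 204 against 28 counts; such intervals cover counting error only), against a largest replicate difference of 0.91. CYP1A1 lies on chr15:74719542-74725610, minus strand, in GENCODE release 29 on GRCh38.

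Promoters of 3 members that stood apart, CYP1A1, AHRR and TIPARP, are shown because the receptor and its partner ARNT recognise a short core, GCGTG on one strand or CACGC on the other. Each is the first entry for its gene in RefSeq on GRCh38.p14, covering the 250 bases before the transcript start and read 5′ to 3′ along the gene, with core matches in capitals.
CYP1A1: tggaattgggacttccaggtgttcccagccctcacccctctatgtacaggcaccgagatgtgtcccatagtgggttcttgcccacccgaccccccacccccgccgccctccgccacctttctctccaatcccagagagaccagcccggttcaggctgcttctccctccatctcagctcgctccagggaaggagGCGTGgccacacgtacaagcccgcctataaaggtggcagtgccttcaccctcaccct
AHRR: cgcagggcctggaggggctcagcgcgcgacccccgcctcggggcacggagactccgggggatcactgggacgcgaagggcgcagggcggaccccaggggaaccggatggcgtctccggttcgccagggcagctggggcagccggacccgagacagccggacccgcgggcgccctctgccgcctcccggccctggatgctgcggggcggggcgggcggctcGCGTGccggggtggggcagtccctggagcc
TIPARP: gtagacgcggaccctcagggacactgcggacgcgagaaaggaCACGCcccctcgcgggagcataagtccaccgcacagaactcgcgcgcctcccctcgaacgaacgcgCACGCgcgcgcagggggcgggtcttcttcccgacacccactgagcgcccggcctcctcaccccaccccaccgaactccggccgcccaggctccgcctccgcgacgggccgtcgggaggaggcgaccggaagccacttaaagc
The CYP1A1 window is chr15:74725529-74725778 on the minus strand and holds 1 match, 57 bases before the start. The AHRR window is chr5:321464-321713 on the plus strand, with 1 match at 30 bases, and both RefSeq windows of this gene hold a match. The TIPARP window is chr3:156674340-156674589 on the plus strand, with matches at 208 and 142 bases, and is the only 1 of its 3 windows to hold any. Such a short core is common: 32.2% of 35116 RefSeq windows of this length hold it on either strand, and 43.8% of the 15153 windows of measured genes. A match is a description of these letters and not a measured binding site.

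CYP1B1, the second cytochrome of this system, was at 210 CPM at 500, 133 CPM at 100 and 105 CPM at 20, against 101 ± 3.04 CPM in vehicle (SD, n = 3). Both higher doses were above the vehicle range of 98.9 to 105 CPM, and the difference of 1.00 between 500 and 20 was well above the largest replicate difference of 0.22. TIPARP, an ADP-ribosyltransferase that restrains the receptor, was at 73.2, 49.5 and 40.5 CPM in the same order, a difference of 0.85. AHRR, the receptor's repressor, was at 9.36, 5.30 and 3.98 CPM, a difference of 1.22 against a largest replicate difference of 0.65. In these 4 genes the level followed the dose. At 20, CYP1A1 and TIPARP were inside the vehicle range, CYP1B1 at its upper end and AHRR just below it (4.05 to 6.39 CPM), and at 100 AHRR was still inside it.

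The other members of the list did not follow. NQO1, a quinone reductase shared with the oxidant-response system, was at 1650 CPM at 500 and 1699 CPM at 20, a difference of -0.04. ALDH3A1 differed by 0.20, CYP2S1 by 0.19, UGT1A6 by 0.33 and the amino acid transporter SLC7A5 by 0.20, each less than its largest replicate difference. CYP1A2 was at 0 at all 3 doses. In this list 4 of 9 measured members stood apart upwards and none downwards, with a median of 0.33 against 0.01 over all genes, where 1.11% of genes stood apart. From 20 to 100 the same list had 1 member standing apart, CYP1A1, where the background was 0.536%.

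**Figure D2:**
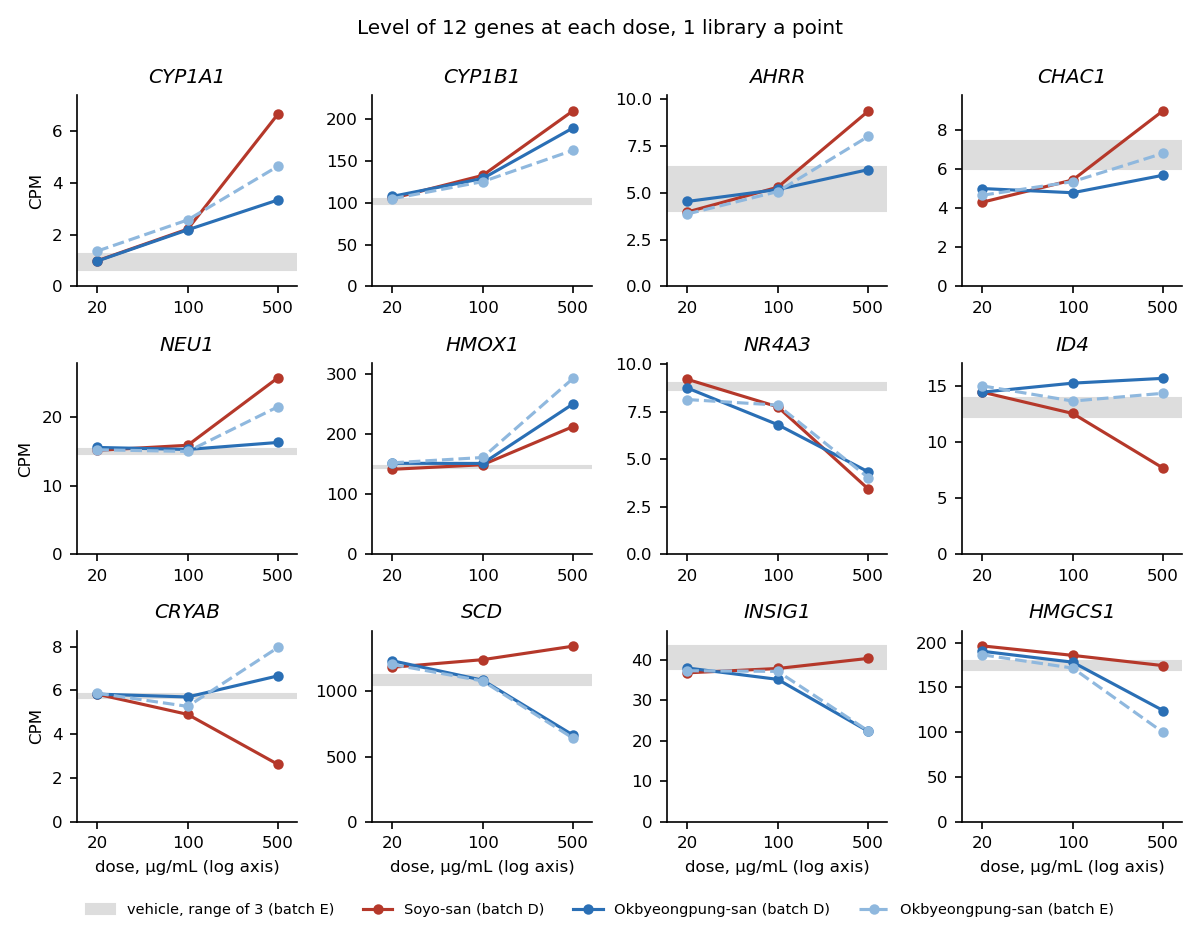
Level in CPM (vertical axes, from 0) of 12 genes against dose (log axis) in Soyo-san (red), Okbyeongpung-san of batch D (blue) and of batch E (light blue, dashed), 1 library a point, with the range of the 3 vehicle libraries as a grey band. CYP1A1, CYP1B1 and AHRR climb with dose in all 3 series, NR4A3 descends in all 3, ID4 and CRYAB are at -0.91 and -1.13 (log2, 500 against 20) in Soyo-san, and SCD, INSIG1 and HMGCS1 are lower at 500 in both Okbyeongpung-san series than in Soyo-san.

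Genes of the integrated stress response were higher at the top dose. Of 24 measured members, 5 stood apart upwards between 500 and 20 and none downwards, with a median of 0.26. Over all genes 1.11% stood apart between these doses, and the median was 0.01. From 20 to 100 the list's median was 0.02 and no member stood apart. CHAC1, which degrades glutathione, was at 8.97 CPM at 500, 5.43 CPM at 100 and 4.30 CPM at 20, a difference of 1.05 against a largest replicate difference of 0.63. The vehicle range was 6.02 to 7.44 CPM, so that the 20 and 100 libraries were below vehicle and the 500 library above it. The protein kinase-like inhibitor TRIB3, named here after its values were seen, was at 92.0, 61.1 and 58.4 CPM, a difference of 0.65.

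NIBAN1, a stress-induced modulator of translation, was at 9.76 CPM at 500, 6.49 CPM at 100 and 4.94 CPM at 20, a difference of 0.97. STC2, a secreted stanniocalcin induced by this response, was at 32.0, 20.5 and 19.8 CPM, a difference of 0.69, with vehicle at 20.7 ± 1.26 CPM (SD, n = 3). NUPR1, a small chromatin protein of stressed cells, was at 13.2, 7.72 and 8.21 CPM, a difference of 0.68, and here the 100 library was the lowest. For STC2, NUPR1 and TRIB3 nearly all of the difference lay between 100 and 500.

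Asparagine synthetase, ASNS, was at 143 CPM at 500, 102 CPM at 100 and 98.2 CPM at 20; its difference of 0.54 was above its largest replicate difference of 0.21 but under 1.5-fold. PHGDH of serine synthesis (0.53) and PCK2, the mitochondrial phosphoenolpyruvate carboxykinase (0.56), were likewise under 1.5-fold, while ATF4 messenger RNA itself differed by 0.24. DDIT3, which encodes the stress factor CHOP, was at 11.9, 7.39 and 8.14 CPM, a difference of 0.54. SLC7A11, the cystine transporter, was lower at 500 than at 20, at 499 against 582 CPM. The share of mitochondrially encoded transcripts, highest at 500 and lowest at 100, rose with this list from 100 to 500. From 20 to 100 it fell, while the list's median was near 0. Scaled without mitochondrially encoded genes, the 28 list medians compared between 500 and 20 each moved by less than the SD of their replicate differences. Any other part of this share in the result was not tested. Endoplasmic reticulum chaperones, targets of the unfolded protein response, had a median of 0.09 between 500 and 20, with 13 of 16 members above 0 and 3 below. None stood apart, and HYOU1 was the farthest, at 109 CPM against 89.0 CPM. From 100 to 500 all 16 were higher, with a median of 0.12.

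A few lysosomal and oxidant-response genes were also higher at 500. NEU1, the lysosomal sialidase, was at 25.7 CPM at 500, 15.9 CPM at 100 and 15.1 CPM at 20, with vehicle at 14.6 to 15.3 CPM. Only the 500 library was clear of vehicle by more than 1 CPM, and the difference was 0.76 against a largest replicate difference of 0.40. SQSTM1, the autophagy receptor p62, was at 1217, 835 and 789 CPM, a difference of 0.62. These were the 2 of 21 measured lysosome and autophagy genes that stood apart, against 1.11% of all genes. The list's median was 0.15, and 19 members had a value above 0. The cathepsin CTSD (254 against 200 CPM), the cholesterol carrier NPC2 (45.0 against 34.1 CPM) and the peptidase TPP1 (78.3 against 60.3 CPM) were higher at 500 by less than 1.5-fold.

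HMOX1, haem oxygenase 1, was at 213 CPM at 500, 149 CPM at 100 and 142 CPM at 20, a difference of 0.59 against a largest replicate difference of 0.24. It was the only 1 of 22 measured genes of the NRF2 oxidant-response list to stand apart, where 1.11% of all genes did. The list's median was -0.02, with GCLM at 263 CPM at 500 and 259 CPM at 20 and TXNRD1 at 1940 and 2155 CPM. GDF15, a stress cytokine, was the only one of 20 p53 targets to stand apart, at 27.8, 20.28 and 18.0 CPM, a difference of 0.63. CDKN1A, the p21 cell cycle inhibitor on the same list, was at 86.1, 79.1 and 76.8 CPM and differed by 0.16, less than its largest replicate difference of 0.25.

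Further genes with large differences upwards came from several functions. UAP1L1, a relative of the enzyme that makes UDP-N-acetylglucosamine, was at 12.8, 7.99 and 6.64 CPM at 500, 100 and 20, a difference of 0.94, and all 3 libraries were above the vehicle range of 5.61 to 6.42 CPM. RAB3IL1, an exchange factor of vesicle transport, differed by 0.93, the phosphatase PTP4A3 by 0.83 and the steroid dehydrogenase HSD17B14 by 0.82. CD68, a lysosomal membrane protein used as a macrophage marker, was at 12.4, 8.42 and 6.82 CPM, a difference of 0.86 against a largest replicate difference of 0.81; vehicle was higher than all 3, at 12.7 to 15.3 CPM. The immune list summed to 15.4, 11.4 and 9.56 CPM in the same order, most of it CD68, and 3 to 5 of its 10 markers were at 0.

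Among the lower genes were all 3 NR4A orphan nuclear receptors, products of rapidly inducible genes. NR4A3 was at 3.44 CPM at 500, 7.75 CPM at 100 and 9.20 CPM at 20 µg/mL, with vehicle at 8.81 ± 0.187 CPM (SD, n = 3). The 100 library lay below vehicle and the 500 library far below it, a difference of -1.40 between 500 and 20 against a largest replicate difference of 0.32. NR4A1 was at 17.4, 26.3 and 31.6 CPM, a difference of -0.86, and NR4A2 at 2.68, 4.31 and 4.58 CPM, a difference of -0.76. For NR4A1 and NR4A2 all 3 doses were below vehicle, which was at 36.7 ± 1.12 and 5.20 ± 0.222 CPM (SD, n = 3). These were the 3 of 17 measured immediate early genes to stand apart, against 1.11% of all genes. The median of that list was -0.04: FOS was at 3.83 and 3.91 CPM at 500 and 20, JUN at 28.8 and 24.1 CPM, and MYC at 136 and 111 CPM.

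ID and BMP-related genes were lower at 500. ID4 was at 7.66 CPM at 500, 12.5 CPM at 100 and 14.4 CPM at 20, and ID2 at 74.5, 105 and 114 CPM. Vehicle was at 13.1 ± 0.851 CPM for ID4 and 114 ± 2.64 CPM for ID2 (SD, n = 3), so that the 20 library was close to vehicle and the 500 library below all 3 vehicle libraries. The differences between 500 and 20 were -0.91 for ID4, with a largest replicate difference of 0.23, and -0.61 for ID2, with one of 0.33. ID1 (144 against 181 CPM), ID3 (115 against 144 CPM), the inhibitory SMADs SMAD6 (66.8 against 79.4 CPM) and SMAD7 (16.6 against 19.04 CPM), BAMBI and BMP4 were lower at 500 by less than 1.5-fold. Thus 8 of 9 measured members were lower, with a median of -0.25, and 2 of them stood apart, against 1.11% of all genes. The exception was the BMP antagonist GREM1, at 8.68 against 6.68 CPM. From 20 to 100 the median was -0.11, with the same 8 to 1 split in sign and no member standing apart.

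CRYAB, a small heat shock protein and chaperone, was at 2.62 CPM at 500, 4.90 CPM at 100 and 5.83 CPM at 20, with vehicle at 5.67 to 5.82 CPM. Its difference of -1.13 was above the largest replicate difference of 0.45, while the 14 measured genes of the heat shock list had a median of -0.03 and none stood apart. INSL4, a relaxin-family peptide, was at 11.7, 17.3 and 24.6 CPM, a difference of -1.07. H19, an imprinted long noncoding RNA, was at 73.5, 104 and 135 CPM, a difference of -0.88. Each of these 3 was lowest at 500, with the 100 library between.

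Several genes of secreted and membrane proteins were lower at 500. PTGS2, the inducible cyclooxygenase, was at 22.7, 30.7 and 37.98 CPM, a difference of -0.74; IGFBP5, which binds insulin-like growth factors, at 10.8, 14.3 and 17.5 CPM, a difference of -0.69; STC1, the other stanniocalcin, at 12.1, 15.9 and 19.04 CPM, a difference of -0.65; and TM4SF4 at 11.6, 16.8 and 20.0 CPM, a difference of -0.79. STC1 and STC2 differed in opposite directions between the same libraries. The 3 fibrinogen chains, which A549 cells make, lay just under the 1.5-fold limit: FGB was at 158, 214 and 236 CPM (-0.58), FGG at 116, 149 and 167 CPM (-0.52) and FGA at 159, 195 and 224 CPM (-0.50), each beyond its largest replicate difference. ALB, APOA2 and TTR, which define hepatocytes, were at 0 in all 3 libraries.

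Some large differences could not be assigned to 1 gene. RGPD5 was at 7.20 CPM at 500 and 43.4 CPM at 20 (-2.58) and its near-identical relative RGPD6 at 78.3 and 37.7 CPM (1.05), while their sum was 85.5 and 81.1 CPM, a difference of 0.08. The duplicated pair BOLA2 and BOLA2B stood apart in opposite directions with a summed difference of -0.06. NPIPB13, of a duplicated family, differed by 1.24, and ANAPC1P4 is a pseudogene; reads of such genes may have been divided between copies.

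Cell cycle, lipid synthesis and inflammatory lists had no gene standing apart between 500 and 20 of Soyo-san. None of 24 DNA replication genes and none of 25 mitosis genes did, with medians of -0.04 and -0.10; the proliferation marker MKI67 was at 627 CPM at 500, 690 CPM at 100 and 644 CPM at 20. None of 24 cholesterol genes, 13 fatty acid synthesis genes, 20 hypoxia and glycolysis genes, 11 chemokine and NF-kappa-B target genes or 9 interferon-stimulated genes stood apart, with medians of 0.12, 0.11, -0.04, 0.05 and 0.08. Ribosomal protein genes had a median of -0.04 and mitochondrially encoded messenger RNAs one of 0.18.

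Set beside Okbyeongpung-san of batch D, Soyo-san had higher receptor-target genes and lower NR4A3 at 500 in common and differed in lipid synthesis and ID genes. In Okbyeongpung-san, 74 genes were higher and 24 lower beyond the replicate differences between 500 and 20, 98 in all or 0.71%. Of the 96 genes higher in Soyo-san, 12 were also higher there, which is 12.5% of the Soyo-san genes and 16.2% of the Okbyeongpung-san genes; 77 of the 96 had the same sign, where 49.9% of all genes were above 0. Of the 57 lower genes 1 was shared (1.75% and 4.17%), and 33 (57.9%) had the same sign, where 50.1% of all genes were below 0. Over the 11413 genes with a mean log2 CPM of at least 2, the differences of both series had a Pearson correlation of 0.32, given as a description across genes; the series share no library but share the batch letter.

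CYP1A1 was at 3.35 CPM at 500, 2.19 CPM at 100 and 0.984 CPM at 20 µg/mL of Okbyeongpung-san of batch D. At 20 and 100 these levels lay within 0.05 CPM of those of Soyo-san, and at 500 Soyo-san was higher by 0.98 on the log2 scale, beyond the largest replicate difference of 0.91. CYP1B1 was at 189, 129 and 108 CPM and TIPARP at 69.2, 46.8 and 42.1 CPM, which differed from Soyo-san by at most 0.15 at any dose. AHRR was at 6.24, 5.18 and 4.54 CPM, and the Soyo-san difference between doses was larger by 0.77, beyond the largest of the 7 differences between replicate dose series (0.58). NR4A3 was at 4.34, 6.82 and 8.74 CPM, so that its 500 library was low as well, while NR4A1 (20.7 against 29.3 CPM) and NR4A2 (3.24 against 4.62 CPM) were lower at 500 by less than 1.5-fold there.

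The stress-response genes differed between the extracts at 500. CHAC1 was at 5.68 CPM at 500 of Okbyeongpung-san against 8.97 CPM with Soyo-san (0.65), TRIB3 at 60.3 against 92.0 CPM, and NUPR1 at 8.64 against 13.2 CPM (0.60). NIBAN1 was at 9.69 against 9.76 CPM, a difference of 0.01. Of the 24 members, 3 stood apart upwards in Soyo-san against Okbyeongpung-san at 500 and 1, CEBPB (51.9 against 87.8 CPM), downwards. Over all genes 0.717% stood apart in that comparison. The median difference between 500 and 20 was 0.08 with Okbyeongpung-san against 0.26 with Soyo-san. NEU1 was at 16.3 CPM at 500 of Okbyeongpung-san against 25.7 CPM with Soyo-san, while HMOX1 was at 251 CPM against 213 CPM and did not stand apart.

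Genes of cholesterol and fatty acid synthesis separated the extracts at the top dose. At 500 µg/mL, 50 genes were higher and 49 lower in Soyo-san than in Okbyeongpung-san of batch D beyond the replicate differences (99, or 0.717%), and 7 of the 24 cholesterol genes, INSIG1, LSS, DHCR7, MVD and MVK included, were among the higher ones, with none among the lower. SCD, the stearoyl-CoA desaturase that makes monounsaturated fatty acids, was at 1344 CPM at 500, 1241 CPM at 100 and 1183 CPM at 20 of Soyo-san, and at 663, 1084 and 1233 CPM with Okbyeongpung-san. At 20 the libraries differed by -0.06 and at 500 by 1.02, against a largest replicate difference of 0.16. INSIG1, the sterol-sensing retention protein and itself a sterol-regulated gene, was at 40.4, 37.9 and 36.8 CPM with Soyo-san and at 22.4 CPM at 500 and 35.2 CPM at 100 with Okbyeongpung-san, a difference of 0.85 at 500.

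The cholesterol synthesis enzymes DHCR7 (121 against 74.8 CPM, 0.69) and MVK (0.67) and the desaturase FADS2 (551 against 328 CPM, 0.75) stood apart at 500 as well. HMGCS1, the entry enzyme of the mevalonate pathway, was at 174 against 124 CPM; this difference of 0.49 was above its largest replicate difference of 0.32 but under 1.5-fold. The list median was 0.46 at 500, where 23 of 24 members were higher in Soyo-san. Between 500 and 20 the list's median was 0.12 in Soyo-san, with 18 members above 0, whereas in Okbyeongpung-san all 24 were lower at 500 and the median was -0.29. Fatty acid synthesis genes had medians of 0.11 and -0.27, and 2 of 13 members, SCD and FADS2, stood apart at 500 between the extracts. Outside synthesis, none of 10 fatty acid oxidation and lipid droplet genes (median -0.03) and none of 7 liver X receptor targets (median 0.25) stood apart between the extracts at 500.

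**Figure D3:**
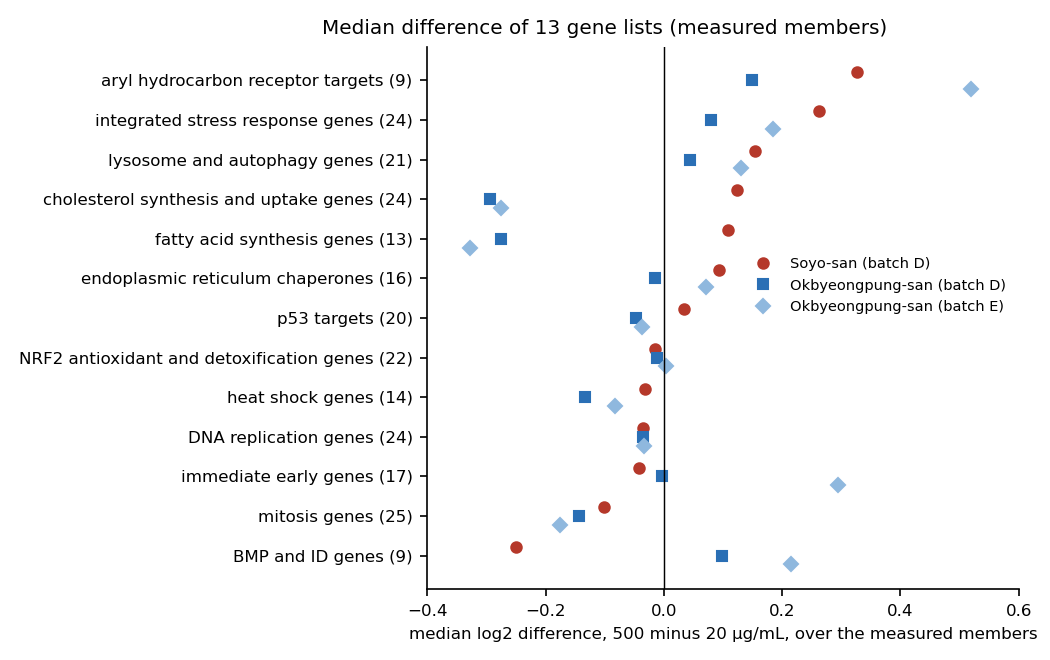
Median log2 difference between 500 and 20 µg/mL (horizontal axis) over the measured members of 13 gene lists, with the number of members in brackets, for Soyo-san (red circles), Okbyeongpung-san of batch D (blue squares) and of batch E (light blue diamonds). The cholesterol list lies at 0.12 for Soyo-san and at -0.29 and -0.28 for the Okbyeongpung-san series, and the BMP and ID list at -0.25 against 0.10 and 0.21.

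ID4 and CRYAB were lower in Soyo-san. With Okbyeongpung-san of batch D, ID4 was at 15.7, 15.2 and 14.4 CPM at 500, 100 and 20, and the 20 µg/mL libraries of both extracts were at the same level. At 500 the difference of Soyo-san from Okbyeongpung-san was -1.02. CRYAB was at 6.66, 5.70 and 5.83 CPM with Okbyeongpung-san, so that the difference was -1.32 at 500, while the levels at 20 were the same to 0.01 CPM. ID2 (120 CPM at 500), IGFBP5 (16.5 CPM), H19 (110 CPM) and STC1 (17.8 CPM) were also close to their 20 µg/mL level in Okbyeongpung-san. The median of the BMP and ID list between 500 and 20 was 0.10 there, against -0.25 with Soyo-san, and ID4 and ID2 stood apart between the extracts at 500.

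Between the extracts 50 genes stood apart at 100 µg/mL (0.362%) and 57 at 20 µg/mL (0.413%), against 99 at 500. The replicate pairs gave 33 to 443 genes, with a median of 79, so that all of these counts lie inside their range. The difference between the dose effects of the extracts (500 minus 20 in Soyo-san, minus the same in Okbyeongpung-san) stood apart in 322 genes, 2.33%, but here only 7 pairs of replicate series were available as a yardstick. Of the integrated stress response genes 3, of the cholesterol genes 6 and of the BMP and ID genes 2 (ID2 and ID4) were in that set.

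**Figure D4:**
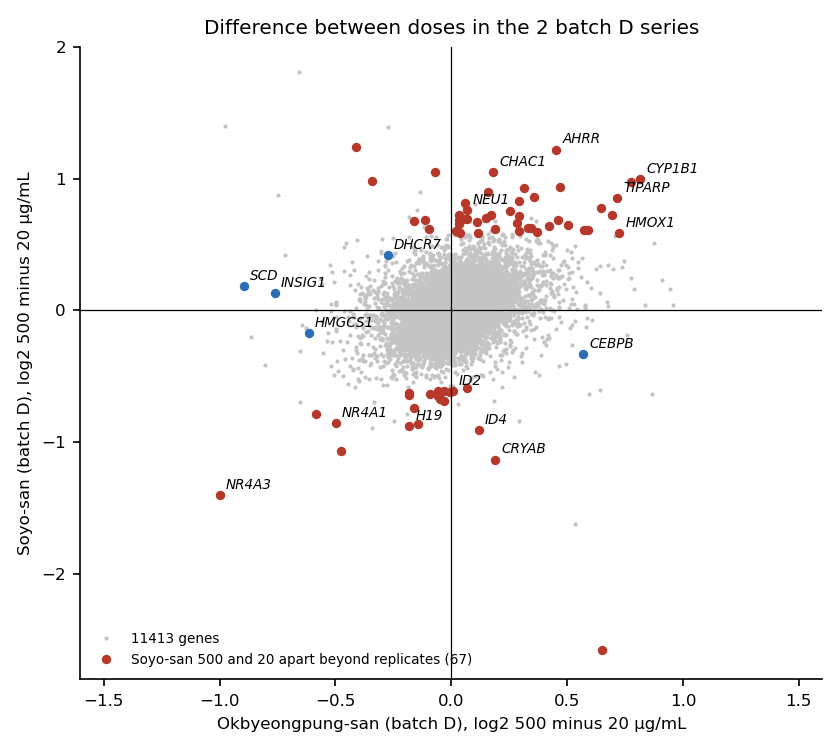
Log2 difference between 500 and 20 µg/mL in Soyo-san (vertical axis) against that in Okbyeongpung-san of batch D (horizontal axis) for 11413 genes with a mean log2 CPM of at least 2; red points are the 67 of them that stood apart between the Soyo-san doses, blue points are named genes that did not, and 2 genes lie outside the axes. CYP1B1 and TIPARP lie high on both axes and NR4A3 low on both, SCD and INSIG1 lie to the left near 0 for Soyo-san, and ID4 and CRYAB lie low near 0 for Okbyeongpung-san.

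Okbyeongpung-san of batch E, titled replicate 2, gave a second view of these contrasts, with the caution that its 500 µg/mL library was unlike the other extract libraries (38008463 counts, 13.1% mitochondrial counts, and 443 genes apart from its replicate of batch D). SCD was at 640 CPM, INSIG1 at 22.5 CPM and HMGCS1 at 99.9 CPM in that library, against 1204, 37.3 and 186 CPM at 20 µg/mL. ID4 was at 14.3 against 15.0 CPM and CRYAB at 7.96 against 5.87 CPM. The medians of the cholesterol, fatty acid synthesis and BMP and ID lists were -0.28, -0.33 and 0.21, on the same side of 0 as in batch D and opposite to Soyo-san. The integrated stress response list had a median of 0.18 in batch E, nearer to the 0.26 of Soyo-san than the 0.08 of batch D was. NEU1, by contrast, was at 21.5 against 15.2 CPM in batch E, closer to Soyo-san than to Okbyeongpung-san of batch D.

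Against the series of the other extracts, the share of Soyo-san genes in common varied with the length of the other list. Of its 96 higher genes 24 (25.0%) were higher in Okbyeongpung-san of batch E, 23 to 26 (24.0% to 27.1%) in the 3 Soshiho-tang series and 7 to 15 (7.29% to 15.6%) in the 3 Yijin-tang series. Those series had 284, 325 to 515 and 38 to 70 higher genes among the 13799 measured. As shares of the other lists the order was reversed, with 5.05% to 7.69% of the Soshiho-tang genes and 18.4% to 24.4% of the Yijin-tang genes. Of the 57 lower genes 5 (8.77%) were shared with Okbyeongpung-san of batch E. With Soshiho-tang 8 to 12 (14% to 21.1%) and with Yijin-tang 6 to 8 (10.5% to 14%) were shared. Those series had 140, 153 to 281 and 30 to 46 lower genes. CYP1B1 differed between 500 and 20 by 0.97 ± 0.125 with Yijin-tang and by 0.12 ± 0.083 with Soshiho-tang (SD, n = 3 series each), against 1.00 with Soyo-san. CHAC1 differed by 0.68 ± 0.15 with Yijin-tang and by 1.95 ± 0.14 with Soshiho-tang, against 1.05. NR4A3 differed by -1.18 ± 0.0635 and -1.27 ± 0.133, against -1.40. ID4 differed by -0.19 ± 0.020 with Yijin-tang and -0.40 ± 0.050 with Soshiho-tang, against -0.91, and Soyo-san lay below all of those series.

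Against vehicle, 260 genes stood apart at 500 (153 higher, 107 lower, 1.88%) and 253 at 20 µg/mL (129 higher, 124 lower, 1.83%). The lowest dose differed from vehicle in about as many genes as the highest, and batch, extract and depth cannot be told apart in that comparison. Scaled by library totals alone, without trimmed means, the share of higher genes was 80.5% at 500 and 78.3% at 20 in place of 58.8% and 51.0%. Of the receptor targets 4 of 9 stood apart upwards at 500 and none at 20. Of the stress response genes 6 stood apart upwards at 500 and 1 downwards at 20. Both comparisons use the Soyo-san libraries already compared by dose above and are not separate evidence.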

How the data were processed

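RNA was sequenced as 100 bp paired reads from directional libraries, per the labels' protocols. The authors deposited expected counts per gene, for which RSEM 1.3.3, STAR 2.7.3a, FastQC 0.11.9, Trim Galore 0.6.5 and the build hg38 are listed, per the submitters' processing notes; the annotation release and the strand setting are not given in the sources used here. The table's 30 sample columns were each matched to 1 library by title, and 30 empty columns were left out.

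Expected counts were rounded to whole numbers, scaled by trimmed means (edgeR 4.0.16, R 4.3.3) and turned into log2 CPM with a prior count of 2. Of 34696 genes with any count, 13799 had a mean of at least 1 CPM. The library totals of 19833144 to 38008463 limit the precision of genes near that minimum. No 2 libraries agreed within sampling noise: the lowest chi-square per gene of any pair was 2.00. Differences were computed in Python 3.11.15 and set against 24 pairs of replicates; no test was made, as each Soyo-san dose has 1 library. The calculation was tested on simulated data.

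Genes named by rule had a minimum mean of 2 on the log2 CPM scale and were the 12 with the largest differences in each direction among those standing apart between 500 and 20 with the 100 library between; 6 in each direction between the extracts at 500; 5 in each direction by difference of dose effects; up to 3 in each direction where the 100 library lay outside, which only 1 gene met; up to 4 members of each of 31 gene lists; and a few fixed genes. Other list members are named as examples, chosen after their values were seen. The members and lists were chosen with earlier results of these data known. Gene positions are from GENCODE release 29 and promoters from RefSeq. Alternatives were DESeq2 1.42.0 size factors, library totals, other filters, prior counts of 0.5 and 5, a 2-fold limit, scaling without mitochondrially encoded genes, and leaving out libraries. Results for some genes of the lists are not reported here.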

Additional observations from a re-analysis of the deposited data

Results flagged for a closer look

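Between 500 and 20 µg/mL, 5 lipid genes and 3 lists lay on opposite sides of 0 in Soyo-san and in both Okbyeongpung-san series. Only named genes and lists were searched, and each value had to exceed the SD of a replicate difference. Some genes had been named for a difference between the extracts in these same libraries, which favours opposite signs. For INSIG1 in Soyo-san the margin was small, at 0.13 against an SD of 0.11. The difference was not tested. SCD differed by 0.18 in Soyo-san, by -0.89 in Okbyeongpung-san of batch D and by -0.91 in that of batch E, so that Soyo-san minus Okbyeongpung-san of batch D was 1.08. INSIG1 differed by 0.13, -0.76 and -0.73 in the same order, a difference between the extracts of 0.89. For the sterol reductase DHCR7 the values were 0.42, -0.28 and -0.24, a difference between the extracts of 0.69. Mevalonate kinase, MVK, gave 0.31, -0.42 and -0.17, a difference of 0.73. FADS2 gave 0.20, -0.56 and -0.30, a difference of 0.76.

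Among the lists, the median of the cholesterol synthesis and uptake genes was 0.12 in Soyo-san against -0.29 and -0.28, and the medians in batch D differed by 0.42. The fatty acid synthesis genes had medians of 0.11 against -0.27 and -0.33, differing by 0.38. The BMP and ID genes had medians of -0.25 against 0.10 and 0.21, and here Soyo-san minus Okbyeongpung-san was -0.35. Other extracts lay on the Soyo-san side in part. The 3 Yijin-tang series had fatty acid synthesis medians of 0.09 to 0.11 and cholesterol medians of -0.02 to 0.09, close to Soyo-san, and the 3 Soshiho-tang series had BMP and ID medians of -0.23 to -0.07. Single genes and the lists they belong to share their libraries, and are not separate evidence.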

How the results depend on the processing

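No gene named as standing apart between 500 and 20 of Soyo-san changed direction in that comparison under the scalings, filters and prior counts run. This was nearly fixed in advance, as a filter leaves a gene's difference unchanged and the scalings differed little between the 500 and 20 libraries. Whether each named gene still stood apart was not rerun. For the comparisons between the extracts, only the counts of genes were rerun, not the single genes. Counts of genes depended on the filter and the fold limit. Without a filter, 974 genes stood apart between 500 and 20 of Soyo-san (5647 by fold alone), 884 between 100 and 20, 658 between 500 and 100, and 946 between 500 and 20 of Okbyeongpung-san of batch D. Between the extracts the counts were then 587, 616 and 812 at 500, 100 and 20, 2668 for the difference of dose effects, and 720 and 927 for 500 and 20 against vehicle. Without the filter the balance of directions turned as well: 415 genes were higher and 559 lower between 500 and 20 of Soyo-san (2041 and 3606 by fold alone), and 325 and 621 in Okbyeongpung-san of batch D. Of the list medians 3 moved without the filter, fatty acid synthesis to 0.065, fibrinogen and other hepatocyte genes to -0.44 and interferon-stimulated genes to 0. With edgeR's expression filter on the 27 libraries of replicated groups, the same counts were 311 (1514 by fold alone), 209, 209, 233, then 211, 185 and 192, 779, and 418 and 413. With a 2-fold limit they were 26 (57 by fold alone), 12, 15, 16, then 14, 12 and 12, 74, and 62 and 60. With Okbyeongpung-san of batch E in place of batch D, 424 genes stood apart between its 500 and 20 libraries and 248 between the extracts at 500, the latter across batches and with 73 higher and 175 lower in Soyo-san. Leaving out each vehicle library in turn gave 283 to 291 genes at 500 against vehicle and 261 to 285 at 20. With the replicate differences of the Okbyeongpung-san 500 library of batch E left out, an alternative chosen after seeing the data, 164 genes stood apart between 500 and 20 of Soyo-san. No paired analysis was possible because the results come from no test and each Soyo-san dose has 1 library.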

Other observations

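A few genes separated the 100 library from both others or separated the extracts outside the groups above. CERS6-AS1, an antisense transcript, was at 5.598 CPM at 500, 0.961 CPM at 100 and 3.23 CPM at 20 of Soyo-san, with the 100 library lowest and vehicle at 4.45 ± 1.68 CPM (SD, n = 3). Mitochondrially encoded messenger RNAs had a median of -0.29 between 100 and 20, with 12 of 13 members lower at 100 and none standing apart; their summed level was 76958, 60179 and 66962 CPM at 500, 100 and 20.

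PCYT2, which makes CDP-ethanolamine for membrane phospholipid, was at 27.2, 21.9 and 18.7 CPM with Soyo-san and at 15.4, 19.3 and 19.001 CPM with Okbyeongpung-san of batch D, opposite in direction over dose. S100P, a calcium-binding protein, was at 13.8, 14.9 and 22.4 CPM with Soyo-san against 25.1, 19.8 and 22.1 CPM. NDUFAF8, an assembly factor of respiratory complex I, was at 21.0, 19.3 and 28.0 CPM against 37.5, 27.8 and 26.5 CPM. In S100P and NDUFAF8 the Soyo-san levels at 500 and 100 lay below that at 20, while Okbyeongpung-san was highest at 500.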
